A study of Rattus norvegicus with 6 samples.

Results

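SR proteins and heterogeneous nuclear ribonucleoproteins (hnRNPs) are the main families of proteins that coat nascent pre-mRNA and decide which splice sites are used. The genes of both families were taken from a table of RNA sequencing counts by their symbols, those that begin with Srsf and a digit (11 genes) and those that begin with Hnrnp (20 genes), 31 of the 18930 rows in all. The cells were NRK-52E, an established line of rat kidney epithelial cells, wild type by the labels in both groups. STZ (streptozotocin), a nitrosourea that alkylates DNA, was added at 10 mM for 24 h before RNA extraction in 3 samples (STZ), and 3 samples were vehicle-treated (Control). The comparison asks how the transcriptome of a tubular cell line responds to STZ. The sources used here do not say whether replicates were separate cultures. The p-values weigh differences between groups against the spread between these samples, and that spread may be technical. For single genes, edgeR shares part of this spread across genes. A gene's p-value and standard error thus do not rest on its own samples alone.

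Depth was 10430924 to 12737131 counts in the Control samples and 11658253 to 15191349 in the STZ samples. Of 10 epithelial markers, Krt8 had 1101 to 1177 CPM (read counts scaled to library size) in Control and 1595 to 1611 in STZ, and Tjp1 600.2 to 623.3 and 674.9 to 687.3. Cdh1 went the other way on few reads, 16 to 35 per sample, with a mean of 2.58 ± 0.523 CPM in Control and 1.64 ± 0.553 in STZ (log2 fold change -0.69, edgeR adjusted p = 0.030), and Krt7, at 13 to 19 reads, did not pass the test. Krt18 and Cdh2 had at most 3 and 6 reads. The epithelial list summed to 1706 to 1792 CPM in Control and 2284 to 2290 in STZ. Of 8 proximal tubule markers, 5 were near 0 (Slc5a2, Cubn, Lrp2, Slc2a2 and Slc34a1, none above 10 reads), and Anpep had 22 to 39 reads and did not pass the test. Ggt1 rose from 42.5 to 47.8 CPM in Control to 68.0 to 81.3 in STZ, and Aqp1 fell from 8.80 to 15.17 CPM to 4.67 to 5.88, so that this list summed to 59.6 to 62.6 CPM in Control and 77.6 to 89.3 in STZ. Of 12 markers of other kidney cells, 5 were tested and 4 fell (Col3a1, Pdgfrb, Col1a1 and Acta2), with Col3a1 at 47.1 to 60.1 CPM in Control and 19.3 to 23.8 in STZ. Cd68, the other tested gene, had 7 to 29 reads and did not pass the test (log2 fold change 0.40). Nphs1 and Kdr had too few reads to be tested and were higher in STZ. Mean Nphs1 was 0.289 CPM in Control and 1.26 in STZ (3 to 25 reads per sample). Mean Kdr was 0.0865 CPM in Control and 0.561 in STZ (0 to 9 reads per sample). Ptprc and Pecam1 had at most 2 reads, and the list summed to 154 to 162 CPM in Control and 104 to 117 in STZ. The part of these differences in the results was not tested.

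SR proteins bind exonic enhancers through an RNA recognition motif (RRM) and recruit the spliceosome through a tail rich in arginine and serine, which kinases of the SRPK and CLK families phosphorylate. Many hnRNPs bind silencers and oppose them, and members of both families also act in mRNA export, stability and translation. Many members hold down their own mRNA by splicing it into isoforms that are lost to nonsense-mediated decay, and such isoforms are not separated by counts per gene.

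Of the 31 genes, 30 had enough reads to be tested, and 24 of these fell with STZ (edgeR's quasi-likelihood test, Benjamini-Hochberg adjusted over 11870 genes, threshold 0.05). Among all genes tested, 25.1% were lower and 25.9% were higher by the same rule. No member was higher, nor was any higher at an unadjusted p under 0.05 or by DESeq2, limma-voom or edgeR's likelihood ratio test. The falls were small. No member passed an absolute log2 fold change of 1 as well, which 3.37% of all genes tested did. Log2 fold changes ran from -0.66 for Hnrnpa1 to 0.02 for Hnrnpc, with a median of -0.32, against -0.01 for all genes tested. In 25 of the 30, all STZ samples lay below all Control samples, which was so for 27.7% of all genes tested. The opposite order, found in 28.6% of all genes tested, occurred in 0 members. These are levels relative to the whole library, and fewer cells with a given mRNA and less of that mRNA per cell cannot be told apart.

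**Figure D1:**
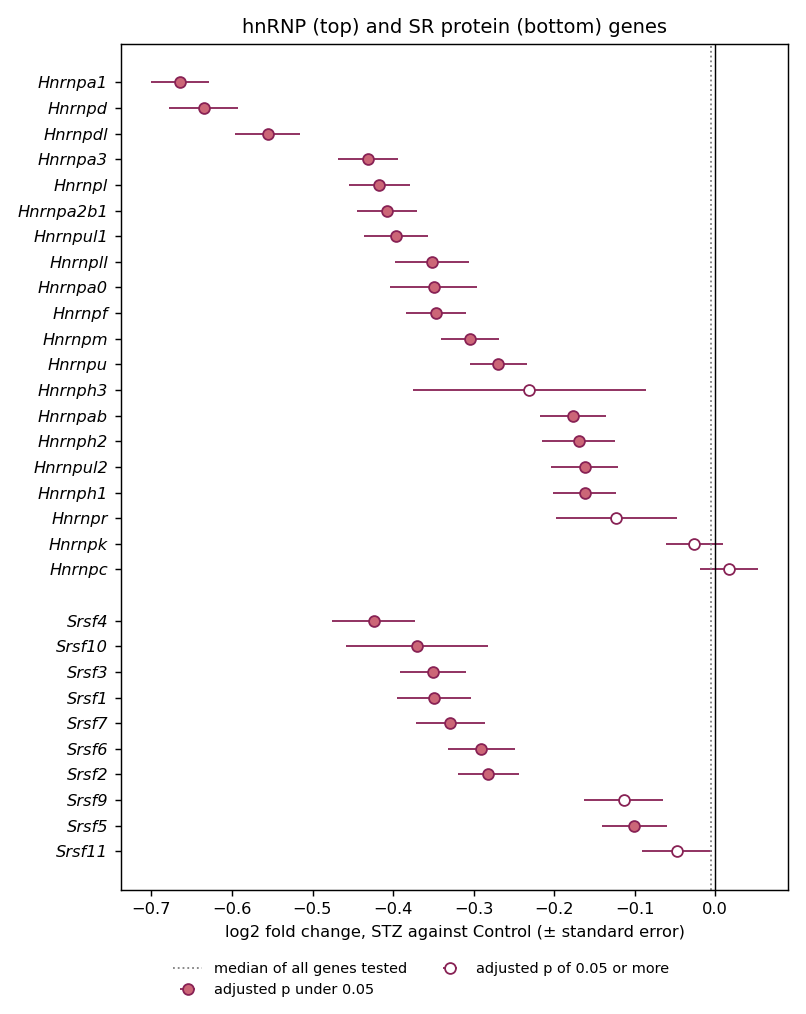
Log2 fold change of STZ against Control (x axis, bars are standard errors) for the 20 hnRNP genes and the 10 SR protein genes tested; filled points had an adjusted p-value under 0.05. The points of 29 of the 30 genes lie left of 0, and Hnrnpa1, Hnrnpd and Hnrnpdl lie farthest left.

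Among the hnRNPs, 16 of 20 fell and 4 did not pass the test, with a median log2 fold change of -0.33. Together they took 0.712%, 0.721% and 0.748% of all reads in the 3 Control samples and 0.574%, 0.566% and 0.580% in the 3 STZ samples. The groups did not overlap. The difference in means was -0.154 percentage points, with p = 0.1 by an exact two-sided permutation test over samples, the smallest p that 3 against 3 samples allow.

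Hnrnpa1 fell the most. Its protein binds exonic and intronic silencers and competes with SR proteins for splice site choice. It had 586, 597 and 621 CPM in Control and 378, 379 and 381 CPM in STZ, a mean of 601 ± 17.8 against 379 ± 1.63 CPM (SD, n = 3 each). Its level fell by 36.9%, a log2 fold change of -0.66 ± 0.04 (SE), with an edgeR adjusted p of 1.6e-19, and 3.29% of all genes tested had a log2 fold change as low or lower. The gap between the groups was many times the spread within either of them. Only uniquely mapped reads were counted, so reads that match Hnrnpa1 and a processed copy elsewhere in the genome equally were not seen.

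Hnrnpd and Hnrnpdl came next. They are close relatives that lie on the same chromosome, and the protein of Hnrnpd, AUF1, binds AU-rich elements in mRNA and promotes decay. Hnrnpd had 219, 218 and 237 CPM in Control and 145, 140 and 149 CPM in STZ, and fell by 35.6% (log2 fold change -0.64, standard error 0.04, edgeR adjusted p = 1.8e-16). Hnrnpdl had 214, 228 and 220 CPM in Control and 149, 148 and 153 CPM in STZ, and fell from a mean of 221 ± 6.78 to 150.1 ± 2.60 CPM (SD, n = 3 each, log2 fold change -0.56, standard error 0.04, edgeR adjusted p = 3.4e-15). No Control sample came near an STZ sample in either gene. The third gene of this subfamily, Hnrnpab, fell less, with a log2 fold change of -0.18 (standard error 0.04).

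The A subfamily, to which Hnrnpa1 belongs, was lower in each of its 4 genes. Hnrnpa2b1, whose protein takes part in mRNA transport, collected the most reads of all members, though read numbers also grow with transcript length. It had 946, 982 and 1014 CPM in Control and 761, 701 and 756 CPM in STZ, a log2 fold change of -0.41 ± 0.04 (SE), with an edgeR adjusted p of 1.9e-12. Hnrnpa3 had 427, 434 and 446 CPM in Control and 331, 311 and 328 CPM in STZ, a log2 fold change of -0.43 ± 0.04 (SE), with an edgeR adjusted p of 4.4e-13. Hnrnpa2b1 fell by 24.6% and Hnrnpa3 fell by 25.8%. Hnrnpa0, which binds AU-rich elements, was the least even, with 105, 133 and 117 CPM in STZ and 141, 156 and 154 in Control, and a log2 fold change of -0.35 (standard error 0.05).

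Hnrnpl, whose protein binds CA repeats, had 455, 446 and 487 CPM in Control and 356, 340 and 344 CPM in STZ, a log2 fold change of -0.42 ± 0.04 (SE), with an edgeR adjusted p of 2.2e-12. Its paralog Hnrnpll, a silencer of variable exons in lymphocytes, had a log2 fold change of -0.35. In the U subfamily, which binds the nuclear scaffold and, through Hnrnpul1 and Hnrnpul2, acts at DNA breaks, log2 fold changes were -0.40 for Hnrnpul1, -0.27 for Hnrnpu and -0.16 for Hnrnpul2, and all 3 genes fell. In the F and H subfamily, which binds runs of G, Hnrnpf fell by 21.3% (log2 fold change -0.35), and Hnrnph1 and Hnrnph2 by 10.6% and 11.1% (-0.16 and -0.17). Hnrnph3 had only 73 to 133 reads per sample and did not pass the test (log2 fold change -0.23, standard error 0.14, edgeR adjusted p = 0.18). Its value rested on single Control samples, with a log2 fold change of -0.39 without Control replicate 2 (edgeR adjusted p = 0.031) and of -0.07 without Control replicate 3 (edgeR adjusted p = 0.76). Without Control replicate 3, Hnrnph2 did not pass (log2 fold change -0.10, edgeR adjusted p = 0.061).

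**Figure D2:**
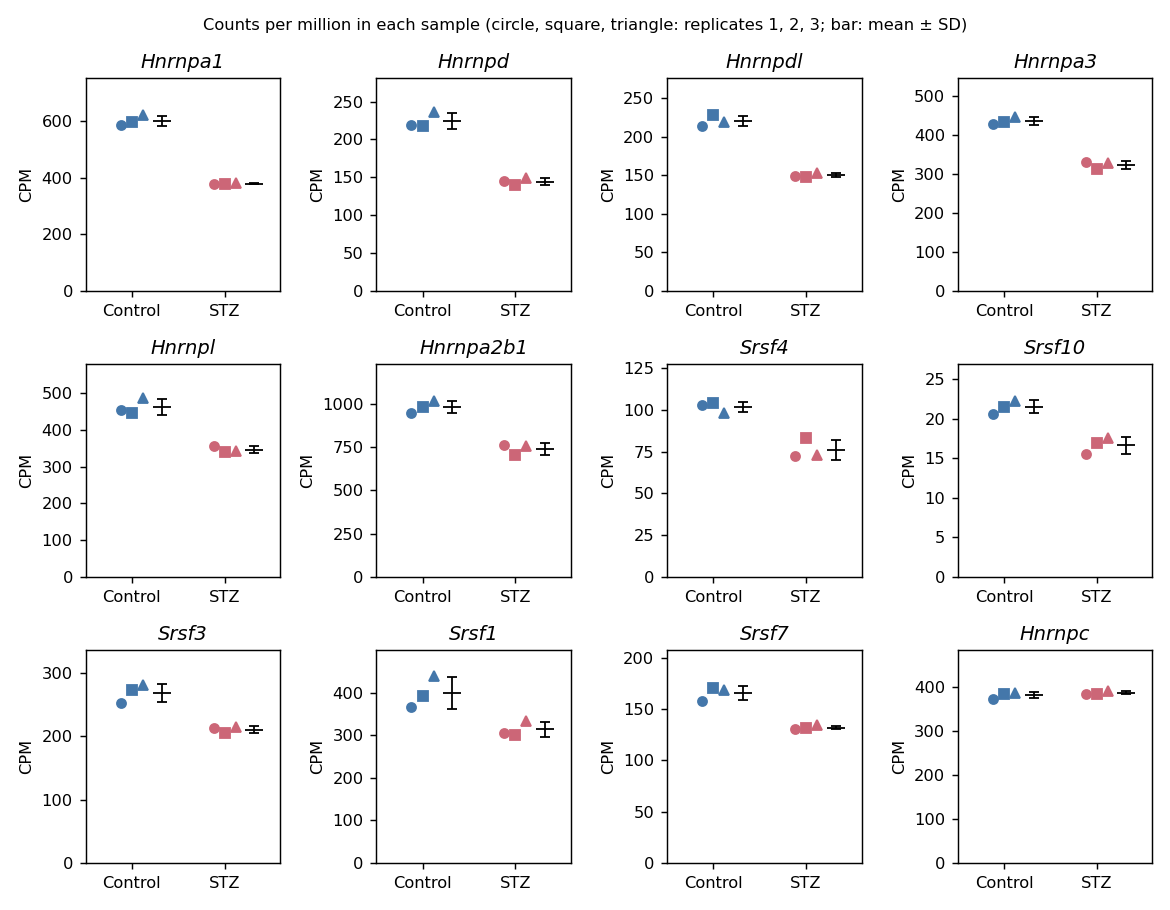
CPM in each sample (y axis, from 0) for 11 genes with per-sample values in the text and for Hnrnpc; circles, squares and triangles are replicates 1, 2 and 3, and the bar beside them is the mean ± SD. In the first 11 panels every STZ sample lies below every Control sample, and in the Hnrnpc panel the groups overlap.

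The 4 hnRNP genes that did not pass the test were Hnrnpc, Hnrnpk, Hnrnpr and Hnrnph3. Hnrnpc, whose protein binds uridine tracts and keeps cryptic exons out of mRNA, had 374, 386 and 388 CPM in Control and 385, 385 and 391 CPM in STZ, a log2 fold change of 0.02 ± 0.04 (SE), with an edgeR adjusted p of 0.72. Hnrnpk, which binds runs of C and is known as a partner of p53 in transcription, had 562, 596 and 586 CPM in Control and 575, 562 and 575 CPM in STZ, a log2 fold change of -0.03 ± 0.04 (SE), with an edgeR adjusted p of 0.57. Both genes had ample reads, at least 3971 per sample, so counting error does not set the limit on these values. The sign of Hnrnpc was negative under 2 other scalings of the libraries, upper quartile and library size only. Hnrnpr had 300 to 400 reads per sample and a log2 fold change of -0.12 (standard error 0.07). Hnrnpm, which regulates alternative exons, fell by 19.0%.

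The make-up of the hnRNP reads, a measure that does not depend on how libraries are scaled, is given as a description with no test. Hnrnpa1 made up 8.36% ± 0.00835 of all hnRNP reads in Control and 6.55% ± 0.0610 in STZ (SD, n = 3 each). Hnrnpk went the other way, from 8.08% ± 0.233 to 9.84% ± 0.0656, and Hnrnpc from 5.32% ± 0.0905 to 6.68% ± 0.0419. Hnrnpa1 thus took more hnRNP reads than Hnrnpk on average in Control and fewer in STZ.

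**Figure D3:**
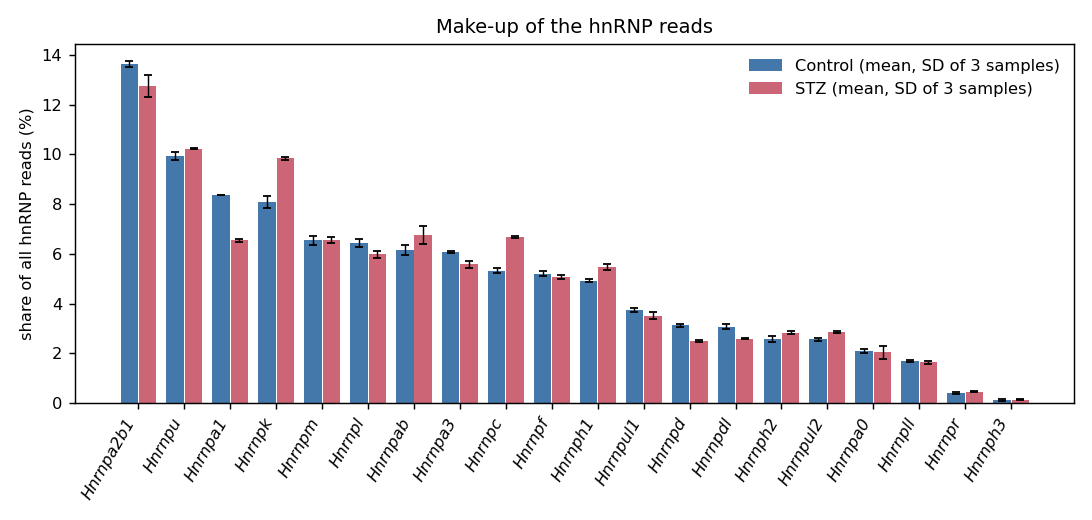
Share of all hnRNP reads taken by each hnRNP gene (y axis, percent, not corrected for transcript length); bars are means of 3 samples and error bars the SD. The share of Hnrnpa1 is lower in STZ (6.55% against 8.36%) and those of Hnrnpk and Hnrnpc are higher.

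Among the SR proteins, 8 of the 10 genes tested fell, Srsf9 and Srsf11 did not pass the test, and the median log2 fold change was -0.31. Their reads made up 0.186%, 0.194% and 0.199% of all reads in Control and 0.154%, 0.155% and 0.160% in STZ, again without overlap. The difference in means was -0.0367 percentage points (p = 0.1 by the exact two-sided permutation test, the smallest possible).

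Srsf4, a long SR protein with a pseudo-RRM beside its RRM, had the largest fall of the family. It had 103, 104 and 98.2 CPM in Control and 72.3, 83.1 and 72.7 CPM in STZ, a log2 fold change of -0.42 ± 0.05 (SE), with an edgeR adjusted p of 4.2e-09. Srsf10, whose protein represses splicing when it loses its phosphates, as in heat shock, had few reads, 195 to 286 per sample. Its level was 20.6, 21.5 and 22.3 CPM in Control and 15.5, 16.9 and 17.5 CPM in STZ, a log2 fold change of -0.37 ± 0.09 (SE), with an edgeR adjusted p of 5.1e-04. The groups did not overlap in either gene.

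Srsf3, the smallest SR protein and an adaptor for mRNA export, had 252, 272 and 281 CPM in Control and 212, 205 and 214 CPM in STZ, a log2 fold change of -0.35 (standard error 0.04). Its edgeR adjusted p of 1.6e-09 was the smallest of the family. Srsf1, the founding member and a proto-oncogene that also promotes translation, had 366, 393 and 440 CPM in Control and 305, 301 and 335 CPM in STZ, a log2 fold change of -0.35 ± 0.05 (SE), with an edgeR adjusted p of 2.2e-08. It had the widest spread among Control samples of the SR proteins, with a coefficient of variation of 9.39%, and the lowest Control sample still lay above the highest STZ sample. Srsf7, which carries a zinc knuckle, had 158, 170 and 169 CPM in Control and 130, 132 and 134 CPM in STZ, a log2 fold change of -0.33 ± 0.04 (SE), with an edgeR adjusted p of 2e-08.

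Srsf6 fell by 18.2% and Srsf2, which activates exons and helps release paused RNA polymerase, by 17.7%. Srsf5 fell by 6.72% (log2 fold change -0.10, standard error 0.04, edgeR adjusted p = 0.035), and this call was lost with DESeq2 and when any of 4 samples was left out (Control replicate 2 or 3, STZ replicate 1 or 2), with adjusted p-values of 0.054 to 0.14. Srsf9 missed the threshold with nearly the same value (log2 fold change -0.11, standard error 0.05, edgeR adjusted p = 0.051) although its groups did not overlap, and it passed under 7 of 16 alternatives. Srsf11, an atypical SR protein, had 123, 129 and 129 CPM in Control and 125, 120 and 123 CPM in STZ, a log2 fold change of -0.05 (standard error 0.04), and its groups overlapped. Srsf12 had 1 read in STZ replicate 2 and 0 in every other sample, where a count of 0 allows up to 3 reads, so its level could not be compared.

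The 5 SR proteins with a pseudo-RRM had a median log2 fold change of -0.29 and the 5 tested with a single RRM -0.33, with 4 lower genes in each set. Within Control, replicate 3 had the highest value of the group in 24 of the 30 genes and replicate 1 the lowest in 19. The median deviation from the group mean was 0.04 and -0.04 on the log2 scale for these samples, small beside the median fall of 0.32. Leaving out any 1 of the 6 samples left 7 to 8 SR proteins and 15 to 17 hnRNPs lower and 0 higher.

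The start sites of these genes are shown because members that fell together can be compared with those that did not. RefSeq promoter windows (build GRCr8, 250 bases before to 50 after a start) were found for 30 of the 31 members, 34 windows in all. The CCAAT box (CCAAT or ATTGG) was present in 20 of the 27 windows of members that fell (74.1%), in 4 of the 7 windows of the other members (57.1%, with Srsf12, which was not tested, among the 7), and in 37.8% of the windows of genes tested here and 37.5% of all windows. The GC box (GGGCGG or CCGCCC) was present in 77.8% of the windows of members that fell, 71.4% of those of the other members and 62.9% of those of genes tested (33.1% of all). The E-box CACGTG, which reads the same on both strands, was in 6 member windows, of Hnrnpa3, Hnrnpd, Hnrnpdl, Hnrnph2, Hnrnpm and Srsf3 (22.2% of the windows of members that fell, 9.45% of those of genes tested and 6.42% of all). TATAAA or TTTATA was in 25.9%, 6.29% and 14.2%. Neither of the last 2 motifs was in any of the 7 other windows, too few to compare shares. These motifs were chosen after several others had been searched, and the differences in share were not tested. A match is a description of letters and no evidence of binding. The 120 bases before the start are given 5′ to 3′ in the direction of transcription for the 3 hnRNP genes with the largest falls (both starts of Hnrnpdl), for Srsf3, and for Hnrnpc and Srsf11, which did not pass the test. Capitals mark these motifs. The windows lie at chr7:136253998-136254117 (+) for Hnrnpa1, chr14:9919637-9919756 (+) for Hnrnpd, chr14:9861596-9861715 and chr14:9862534-9862653 (+) for Hnrnpdl, chr20:7093465-7093584 (+) for Srsf3, chr15:27282716-27282835 (-) for Hnrnpc and chr2:249760259-249760378 (-) for Srsf11.
Hnrnpa1: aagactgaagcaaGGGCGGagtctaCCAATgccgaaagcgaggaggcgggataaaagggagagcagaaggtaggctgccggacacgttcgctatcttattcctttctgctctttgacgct
Hnrnpd: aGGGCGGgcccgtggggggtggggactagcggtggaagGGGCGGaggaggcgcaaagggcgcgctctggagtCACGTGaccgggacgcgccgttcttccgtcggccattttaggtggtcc
Hnrnpdl, upstream start: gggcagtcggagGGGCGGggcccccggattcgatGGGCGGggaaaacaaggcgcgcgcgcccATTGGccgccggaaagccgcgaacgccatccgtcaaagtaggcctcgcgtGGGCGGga
Hnrnpdl, downstream start: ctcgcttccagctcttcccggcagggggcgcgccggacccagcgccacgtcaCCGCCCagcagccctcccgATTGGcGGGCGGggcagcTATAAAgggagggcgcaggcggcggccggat
Srsf3: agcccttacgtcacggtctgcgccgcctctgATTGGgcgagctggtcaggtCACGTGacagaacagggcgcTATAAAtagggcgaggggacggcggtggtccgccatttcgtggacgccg
Hnrnpc: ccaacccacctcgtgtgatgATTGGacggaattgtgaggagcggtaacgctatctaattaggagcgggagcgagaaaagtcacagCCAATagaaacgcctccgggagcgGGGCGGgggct
Srsf11: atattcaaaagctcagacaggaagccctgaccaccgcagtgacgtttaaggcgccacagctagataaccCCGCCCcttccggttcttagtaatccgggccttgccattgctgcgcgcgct
Of those that fell, Hnrnpd and Srsf3 each carry CACGTG in this stretch, and Hnrnpa1, Hnrnpdl and Srsf3 a CCAAT box. Hnrnpc, which did not pass the test, carries a CCAAT box in each orientation, and over the whole window all 4 hnRNP genes that did not pass (Hnrnpc, Hnrnpk, Hnrnpr and Hnrnph3) have the box, so it was not limited to genes that fell.

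In the same RefSeq annotation, the spans of 9 of the 31 members overlap another gene, and since it is not known whether reads were assigned by strand, those of overlapping pairs may be mixed. The partner of Hnrnpa1 is Cbx5, a heterochromatin protein, which also fell (log2 fold change -0.12, standard error 0.05, edgeR adjusted p = 0.046), against -0.66 for Hnrnpa1. Enoph1, which overlaps Hnrnpdl, was at -0.06 (standard error 0.07), and Vezf1, which overlaps Srsf1, at -0.09 (standard error 0.05). Rmi1, a DNA repair gene that overlaps Hnrnpk, rose (log2 fold change 0.40, standard error 0.06, edgeR adjusted p = 3.5e-07), and its part in the value of Hnrnpk was not tested.

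Genes that work beside both families were counted in 8 further lists. Of 15 SR-related co-activators, such as the Tra2 and Srrm proteins, 10 fell and 0 rose (0 also at an unadjusted p under 0.05 and by DESeq2, limma-voom and the likelihood ratio test), with a median log2 fold change of -0.21. Acin1, part of a complex left on spliced mRNA, fell to a log2 fold change of -0.40. A list of hnRNP proteins that go by other symbols also held related RNA-binding proteins, such as Elavl1 and Msi2. Of its 17 genes, 12 fell and 1 rose, with a median of -0.21. Rbmx (hnRNP G) fell from 79.5, 79.7 and 80.2 CPM to 51.3, 49.0 and 48.3 CPM, a log2 fold change of -0.69, while Pcbp3 rose, with a log2 fold change of 0.56. Of 18 other sequence-specific regulators, 11 fell and 1 rose (median -0.15). Ewsr1 was the lower gene with the smallest p (log2 fold change -0.43), and Mbnl2, a muscleblind splicing factor, was the higher gene (0.41).

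Most of the core spliceosome genes that changed were lower. Of 14 proteins of the U2 snRNP and U2AF, 11 fell and 1 rose (median -0.19), led by U2af1, which reads the 3′ splice site (log2 fold change -0.36), with Sf3b4 higher (0.19). Of 13 rows in the list of Sm and U1 snRNP proteins, 6 fell and 0 rose (0 also at an unadjusted p under 0.05 and by the other 3 tests), with a median of -0.10. Snrpa, a U1 protein, had a log2 fold change of -0.50. The list also held the U2 snRNP proteins Snrpa1, which fell (log2 fold change -0.36), and Snrpb2, which did not pass the test (-0.10). Of 19 rows for tri-snRNP and Prp19 complex proteins, 9 fell and 1 rose (median -0.09), with Snrnp200, the helicase that unwinds U4 from U6, at -0.22 and Bud31 at 0.16. The Bud31 call was lost with library size only, with DESeq2 and without Control replicate 1, Control replicate 3 or STZ replicate 3. Of 10 nonsense-mediated decay factors, 3 fell and 1 rose (median -0.11), with Upf1, the central helicase, at -0.21 and Upf3b at 0.28. With library size only 5 of these fell, and without Control replicate 3, 2 rose.

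Of 9 tested genes for the kinases and the importer of SR proteins, Clk1, Clk2, Clk3 and Srpk2 rose, and Srpk1, Dyrk1a, Prpf4b and the importer Tnpo3 fell. Clk1, a nuclear kinase of SR proteins, had 48.9, 49.0 and 47.1 CPM in Control and 61.9, 66.0 and 67.1 CPM in STZ, a log2 fold change of 0.43 ± 0.06 (SE), with an edgeR adjusted p of 2.2e-08. Srpk1, a mainly cytoplasmic kinase that prepares SR proteins for import, had 136, 142 and 149 CPM in Control and 116, 120 and 121 CPM in STZ, a log2 fold change of -0.26 ± 0.04 (SE), with an edgeR adjusted p of 6.5e-06. Every STZ sample lay above every Control sample in Clk1 and below in Srpk1. Clk2 and Srpk2 rose less (log2 fold change 0.13 each), and Prpf4b fell by little (-0.12). With library size only, 2 of the 9 genes rose in place of 4. The higher genes numbered 3 with the upper quartile, with DESeq2 and without Control replicate 3 or STZ replicate 3. The lower genes numbered 3 with DESeq2 and without Control replicate 3, STZ replicate 2 or STZ replicate 3. The shares of lower genes ran from 3 of 10 for the decay factors to 11 of 14 in the U2 snRNP and U2AF list. Among all genes tested, 25.1% were lower and 25.9% higher.

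**Figure D4:**
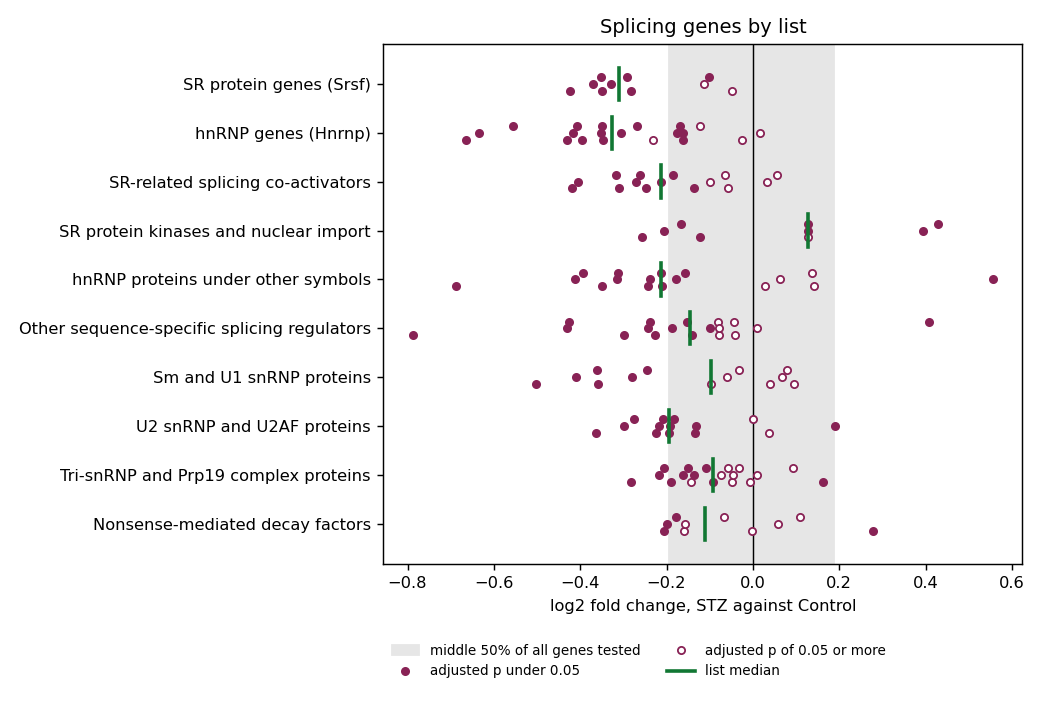
Log2 fold change of STZ against Control (x axis) of each gene tested in both families and in 8 lists of other splicing genes; filled points had an adjusted p-value under 0.05, green bars are list medians, and the grey band is the middle 50% of all genes tested (-0.19 to 0.19). The medians of both families lie left of the band. Those of the SR-related co-activators and of the hnRNP proteins under other symbols (-0.21 each) also lie left of it. The median of the kinase list lies on the right of 0.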

How the data were processed

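Polyadenylated RNA of 6 samples was sequenced in 100-bp single-end mode after TruSeq stranded library preparation. The authors used STAR 2.7.10a with the Rnor6 build of the rat genome and deposited raw counts of uniquely mapped reads per gene from featureCounts, without normalization. The annotation version and the strand setting are not given in the sources used here. No column was left unassigned.

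Here, counts were filtered with filterByExpr, scaled by TMM (factors 0.988 to 1.02) and compared by the quasi-likelihood test of edgeR 4.0.16 in R 4.3.3 across 11870 genes of 18930, with Benjamini-Hochberg adjustment. Standard errors (SE) were obtained from the F statistic as |log2 fold change|/√F. CPM uses the TMM-scaled library size. The steps were run on simulated counts in which few genes were changed, as many up as down. Such counts do not test the steps where many genes change, as here. Genes were called at adjusted p-values below 0.05 alone. Those that also changed by more than 1 on the log2 scale were counted separately, since the study required both. Alternatives were 3 filters, 3 scalings, 3 tests (edgeR's likelihood ratio test, DESeq2 1.42.0, limma-voom 3.58.1), a replicate block, and the removal of each sample.

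Members and lists were chosen with earlier results of these data known, and the promoter motifs after several others had been searched. Values per sample are given, in each family, for the 5 called members with the largest falls (no member rose) and the member with the most reads, and for Hnrnpc, Hnrnpk, Hnrnpa0 and Srsf11, chosen after their values were seen. Of other lists, the higher and the lower gene of smallest p are named. Some listed genes were not analysed here: 1 hnRNP protein under another symbol, 3 other regulators, 4 epithelial markers and 2 markers of other kidney cells. Protein sequences were not used here.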

Additional observations from a re-analysis of the deposited data

How the results depend on the processing

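The counts of SR proteins and hnRNPs that fell or rose, the count past both thresholds, the median of the SR proteins and the count of other splicing genes called (75) stayed within 1.5 times, or within the replicate spread for the median, under all alternatives run. SR proteins lower numbered 7 to 9 and hnRNPs lower 15 to 17 over these. With library size only, the median log2 fold change of the hnRNPs was -0.36, more negative than the -0.33 reported, and the median over all genes tested was -0.04. Divided by the TMM effective library size, the difference in the summed share of hnRNP reads was -0.139 percentage points, in place of -0.154. With 1 sample left out, the median of the SR proteins was -0.34 to -0.27 and that of the hnRNPs -0.33 to -0.30, the differences in summed share were -0.0404 to -0.0335 and -0.162 to -0.144, and 68 to 75 other splicing genes were called. Hnrnpc changed sign, to -0.0020 with the upper quartile and -0.016 with library size only, and did not pass the test in either. Of 480 refits of single members, 464 kept direction and side of the threshold, 6 lost the call, 8 gained it and 2 changed sign. The cause was not tested. Same-numbered samples had correlations of 0.0324, -0.0378 and 0.105 between their deviations from the group means over 10341 genes. With 3 samples per group, these values cannot show whether same-numbered samples were handled together. The main fit did not pair them. Fitted with a replicate block, 9 SR proteins and 16 hnRNPs were lower, and Srsf9 passed (log2 fold change -0.11, edgeR adjusted p = 0.044). Depth limits the values of Hnrnph3, Hnrnpr, Srsf10 and Srsf12.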
